A study of Mus musculus with 12 samples.

Results

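Isoprenaline (Iso), an agonist of beta-adrenergic receptors, was given to heart muscle cells with and without the kinase CaMKII, and the response that both genotypes share was measured as the mean of the Iso effect in the 3 mice of each genotype. All 12 arrays of the study entered this comparison, and 13737 of 24704 genes were bright enough to test, which required 3 or more arrays on which the probe set exceeded that array's median. Of these, 17 passed limma's test of the mean effect (0.124% of the genes tested, at an adjusted p under 0.05 after Benjamini-Hochberg adjustment). Genes were counted as moving alike if they passed, had the same sign in both genotypes, and the smaller of both effects was at least 0.5 of the larger: 11 genes did so, 9 higher and 2 lower.

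The cells were adult mouse ventricular myocytes, freed enzymatically from perfused hearts and held in culture for 24 h with 100 nM Iso or without it. The wild-type group (WT) and the knockout group (DKO), which lacks the CaMKII delta and CaMKII gamma forms, held 3 mice each. Every mouse gave 1 untreated and 1 Iso-treated array, so that 4 groups of 3 arrays resulted: untreated WT, Iso-treated WT, untreated DKO and Iso-treated DKO. All mice were adult, and the sources used here do not say how or in which cells the kinase genes were removed. The study asked whether a histone H3 phosphorylation that Iso causes goes along with changes of gene expression. All values are on the log2 scale, and differences are Iso minus untreated.

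Beta-adrenergic receptors raise cyclic AMP, which activates protein kinase A and, through the transcription factor CREB, a set of early genes and feedback brakes. In a heart muscle cell the same signal raises calcium cycling, and calcium bound to calmodulin activates CaMKII, a second kinase that acts on channels, on calcium release and on regulators of transcription. Genes that respond without CaMKII would move in both genotypes, and cell stress pathways (unfolded proteins, oxidants, low oxygen, DNA damage) have target genes of their own, which were read alongside.

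Of the deleted genes, Camk2g read 4.78 to 5.80 on the WT arrays and 3.57 to 4.20 on the DKO arrays, without overlap. Camk2d read 7.94 to 8.42 and 7.36 to 7.98, with overlap. Whether its probe set lies in the deleted part was not determined, and the cause of the remaining signal was not tested. Markers of ventricular myocytes had a mean level of 11.1 to 11.3 on every array. Untreated DKO array 3 stood apart: across genes its correlations with the other arrays had a median of 0.956, against medians of 0.984 to 0.988 for the others. The level of small non-coding RNA genes on it was 0.37 over their mean, against -0.25 to 0.17 on the other 11 arrays, so results are also given without it. Array number, 3 per group, limits the precision of every value.

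Across genes the effects in both genotypes were only weakly related. Of the 13737 genes, 52.2% had the same sign in WT and DKO, and the Pearson correlation of the WT with the DKO effect was 0.064 (Spearman 0.073), taken over genes, which are not replicates of each other. The WT and DKO effects share no array and no mouse. Differences within single mice correlated at 0.13 to 0.30 between WT mice and at 0.19 to 0.32 between DKO mice, but only at -0.21 to 0.23 between a WT and a DKO mouse. Without untreated DKO array 3 the correlation of effects was 0.17 (Spearman 0.16).

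Each genotype was also tested by itself. At an unadjusted p under 0.05 there were 920 genes (6.7%) in WT and 2527 (18.4%) in DKO. Both lists held 236 genes, of which 173 had the same sign (95 higher and 78 lower) and 63 opposite signs. The 173 are 18.8% of the WT list and 6.85% of the DKO list, and the 63 are 6.85% and 2.49%. Of the WT list, 58.6% had the same sign in DKO, and of the DKO list 60.1% had the same sign in WT, against 52.2% of all genes. After adjustment 3 genes (0.0218%) passed in WT and 7 (0.051%) in DKO. For the mean effect 1980 genes (14.4%) had an unadjusted p under 0.05, 923 higher and 1057 lower.

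**Figure D1:**
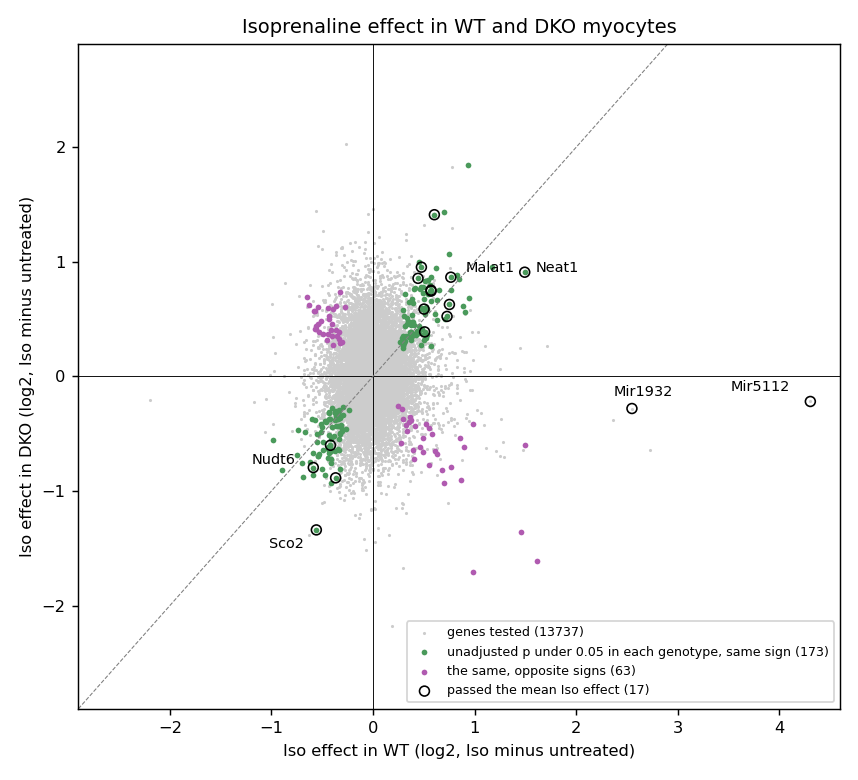
Iso effect in WT (horizontal axis, log2) against the Iso effect in DKO (vertical axis, log2) for 13737 genes (points); the dashed line marks equal effects. Green points (173 genes) and purple points (63 genes) have an unadjusted p under 0.05 in each genotype with the same and with opposite signs, and rings mark the 17 genes that passed the mean effect, of which Mir5112 and Mir1932 lie far to the right with DKO effects near 0.

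The 17 genes that passed were 13 that rose (0.0946% of the genes tested) and 4 that fell (0.0291%). In 15 of them all 6 mice changed in the same direction, which held for 7.08% of all genes, and in the same number the treated arrays lay beyond the untreated ones within each genotype, as they did upward in 1.09% and downward in 1.25% of all genes. For 12 of the 17, all 6 treated arrays lay beyond all 6 untreated arrays, a pattern shown upward by 0.539% and downward by 0.561% of all genes. These genes were selected by the same contrast, so the counts describe them and add no evidence. Of the 17, 2 carry names of microRNA genes and 1 is a predicted gene, which is counted but not named.

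Of the genes that passed, Neat1, Malat1 and Mhrt are long non-coding RNAs, named here as single genes and not as a tested group. Neat1 (Entrez gene 66961), the scaffold RNA of the nuclear bodies called paraspeckles, read 6.19, 6.55 and 5.73 in untreated WT and 7.59, 8.04 and 7.32 in Iso-treated WT. The untreated DKO arrays gave 6.31, 6.24 and 6.44, and their treated counterparts 7.35, 7.61 and 6.77. Each treated array lay above all 6 untreated arrays, the lowest treated one being DKO array 3. Neat1 rose by 1.20 (SE 0.18, limma adjusted p = 0.0306), a 2.30-fold difference, with an effect of 1.49 in WT and 0.91 in DKO. The DKO effect minus the WT effect was -0.58, with a 95% confidence interval from -1.35 to 0.18.

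Malat1 (Entrez gene 72289), an abundant RNA of nuclear speckles, read 10.49, 10.90 and 10.36 in untreated WT and 11.43, 11.50 and 11.12 in Iso-treated WT. The untreated DKO arrays read 10.60, 10.70 and 10.29 and the Iso-treated ones 11.48, 11.49 and 11.21. All treated arrays lay above all untreated arrays, in nearly the same range in both genotypes. Malat1 rose by 0.82 (SE 0.12, adjusted p = 0.0306, 1.76-fold), by 0.77 in WT and 0.87 in DKO, and these effects differed by 0.10 with an interval from -0.43 to 0.63. For both RNAs the call was kept without Iso-treated array 3 of either genotype, untreated DKO array 2 or 3 or untreated WT array 2, and lost without any 1 of the other 7 arrays (highest adjusted p = 0.123 for Neat1 and 0.124 for Malat1).

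Mhrt (Entrez gene 791403), a heart-specific RNA transcribed antisense to the beta myosin heavy chain gene Myh7, read 9.0, 9.12 and 9.09 in untreated WT and 9.62, 9.54 and 9.57 after Iso. In DKO it read 8.86, 8.86 and 8.75, and 9.32, 9.11 and 9.20 after Iso. Groups did not overlap within a genotype, but the lowest Iso-treated DKO array lay below the highest untreated WT array. Mhrt rose by 0.45 (SE 0.08, adjusted p = 0.0490), by 0.51 in WT and 0.39 in DKO. Myh7 itself differed by -0.07 (adjusted p = 0.880) and Myh6, the alpha chain, by 0.21 (adjusted p = 0.289) and the sources used here do not say which strand the probes read. With single arrays left out, the Mhrt call was kept without untreated DKO array 2 or 3 only. It was lost with the mouse as a fixed block (adjusted p = 0.117) and without small non-coding RNA genes (adjusted p = 0.0541). With the mouse as a random block it was kept (adjusted p = 0.0422).

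Dot1l, Ell2 and Resf1 also rose, each as a single gene. Dot1l (Entrez gene 208266), the methyltransferase of lysine 79 in histone H3, read 5.51, 5.69 and 5.62 in untreated WT and 5.96, 6.44 and 6.13 in Iso-treated WT. Its DKO values were 5.47, 5.53 and 5.78 untreated against 6.34, 6.45 and 6.24 with Iso. All 6 treated arrays were above all 6 untreated arrays, and untreated DKO array 3 was the highest of the latter. Dot1l rose by 0.66 (SE 0.10, adjusted p = 0.0306, 1.58-fold), by 0.57 in WT and 0.75 in DKO, with an interval of the difference from -0.26 to 0.62.

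Ell2 (Entrez gene 192657), a subunit of the super elongation complex that keeps RNA polymerase II moving, read 6.76, 7.02 and 7.02 in untreated WT and 7.68, 7.36 and 7.19 after Iso. Untreated DKO arrays read 6.43, 6.54 and 6.23 and treated ones 7.27, 7.62 and 7.17. Untreated DKO arrays were the lowest, and both treated groups reached about the same level. Ell2 rose by 0.71 (SE 0.12, adjusted p = 0.0425, 1.64-fold), by 0.48 in WT and 0.95 in DKO. The smaller effect was 0.499 of the larger, just outside the rule for moving alike, with an interval of the difference from -0.03 to 0.98.

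Resf1 (Entrez gene 67246), a factor in the silencing of retroelements, read 7.78, 7.97 and 7.99 in untreated WT, and 8.62, 8.83 and 8.47 after Iso. The DKO arrays read 7.56, 7.70 and 7.67, and 8.19, 8.33 and 7.97 after Iso. Resf1 rose by 0.63 (SE 0.10, adjusted p = 0.0306), by 0.73 in WT and 0.52 in DKO; the treated groups lay above the untreated ones within each genotype but not across them. With the mouse as a fixed block the adjusted p was 0.0928 for each of Dot1l, Ell2 and Resf1. As a random block it was 0.0259, 0.0362 and 0.0259. All 3 calls were kept without Iso-treated WT array 3 or untreated DKO array 2 or 3. Dot1l was also kept without Iso-treated WT array 1 and Resf1 without Iso-treated DKO array 3, and other single arrays left out ended the calls (highest adjusted p = 0.124 for Dot1l and Resf1 and 0.154 for Ell2).

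The promoter of Ell2 is shown because among the 10 promoters found for passing genes that rose it is the only one with a complete cyclic AMP response element, TGACGTCA, the binding sequence of CREB. The window covers 250 bases before and 50 bases after the annotated start (RefSeq, GRCm38.p6, chr13:75707234-75707533, + strand), and the capitals mark the element, which begins at position -198 from the start.
Ell2: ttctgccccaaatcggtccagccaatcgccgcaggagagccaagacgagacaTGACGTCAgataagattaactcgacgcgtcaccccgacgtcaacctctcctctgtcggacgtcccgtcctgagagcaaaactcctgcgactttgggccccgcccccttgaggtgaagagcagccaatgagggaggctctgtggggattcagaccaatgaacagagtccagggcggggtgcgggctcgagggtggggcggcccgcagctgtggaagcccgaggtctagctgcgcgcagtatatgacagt

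Trpm7 (Entrez gene 58800), a cation channel joined to a kinase domain, was the member of the ion channel list that passed. It read 5.39, 5.86 and 5.53 in untreated WT and 6.11, 6.26 and 6.13 in Iso-treated WT. For DKO the untreated values were 5.71, 5.62 and 5.35, and the treated values 6.27, 6.29 and 6.35. All treated arrays lay above all untreated ones. Trpm7 rose by 0.66 (SE 0.10, adjusted p = 0.0306), by 0.57 in WT and 0.74 in DKO, with an interval of the difference from -0.26 to 0.61.

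Il1rn (Entrez gene 16181), the antagonist that blocks the interleukin 1 receptor, read 5.56, 5.64 and 5.58 in untreated WT and 6.36, 6.66 and 6.02 in Iso-treated WT. Untreated DKO arrays read 5.65, 5.29 and 5.38 and treated ones 6.06, 6.23 and 5.92. The lowest treated array of all was above the highest untreated array. Il1rn rose by 0.69 (SE 0.12, adjusted p = 0.0450, 1.61-fold), by 0.75 in WT and 0.63 in DKO, with an interval of the difference from -0.62 to 0.38. Macrophages also express this gene, and the 17 macrophage markers tested had a mean level of 5.17 to 5.29 in untreated and 5.18 to 5.27 in Iso-treated WT, and 5.11 to 5.42 in untreated and 4.76 to 4.96 in Iso-treated DKO. They overlapped between the WT groups and were lower with Iso in DKO, and their part in the Il1rn result was not tested. In bulk RNA, fewer cells of a type and less RNA per cell cannot be told apart.

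The upstream promoter of Il1rn is shown because it was the only one of the 16 promoters of passing genes with an AP-1 element, TGANTCA, the binding sequence of Fos and Jun dimers. It is 1 of 3 promoters of the gene in the table (RefSeq, GRCm38.p6, chr2:24336610-24336909, + strand), and the element in capitals begins at position -141.
Il1rn: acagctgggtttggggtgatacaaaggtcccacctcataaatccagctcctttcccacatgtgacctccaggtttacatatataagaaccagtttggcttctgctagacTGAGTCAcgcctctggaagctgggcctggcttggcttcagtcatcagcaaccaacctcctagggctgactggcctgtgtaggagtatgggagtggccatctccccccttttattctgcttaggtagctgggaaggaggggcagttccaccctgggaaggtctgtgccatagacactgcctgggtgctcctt

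The last genes that rose and moved alike were a variable segment gene of the immunoglobulin kappa light chain (Entrez gene 384515) and Mospd4 (Entrez gene 72076). The kappa segment rose by 0.65 (SE 0.11, adjusted p = 0.0450), by 0.44 in WT and 0.86 in DKO, so that its ratio of 0.518 lay just inside the rule. It read 6.29 to 6.43 in untreated and 6.51 to 7.03 in Iso-treated WT, and 5.79 to 5.86 and 6.54 to 6.96 in DKO. Of 14 lymphoid markers on the array only 6 were bright enough to test, at a mean level of 3.48 to 3.82, and their part in this result was not tested. Mospd4 rose by 0.54 (SE 0.09, adjusted p = 0.0450), by 0.50 in WT and 0.59 in DKO, from 3.66 to 4.06 on untreated arrays to 4.25 to 4.53 on treated ones.

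These 4 calls rested on single arrays as well. With the mouse as a fixed block the adjusted p was 0.0928 for Trpm7, Il1rn and the kappa segment and 0.107 for Mospd4. As a random block it was 0.0259 for Trpm7 and 0.0392 for each of the others. Trpm7 was kept without untreated DKO array 2 or 3, untreated WT array 2 or Iso-treated WT array 3, and Il1rn without Iso-treated WT array 3 or untreated DKO array 3. The kappa segment was kept without untreated DKO array 2 or 3 or Iso-treated WT array 1, and Mospd4 without untreated DKO array 3. Each was lost without any 1 of the remaining arrays, where the highest adjusted p lay between 0.124 and 0.174.

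**Figure D2:**
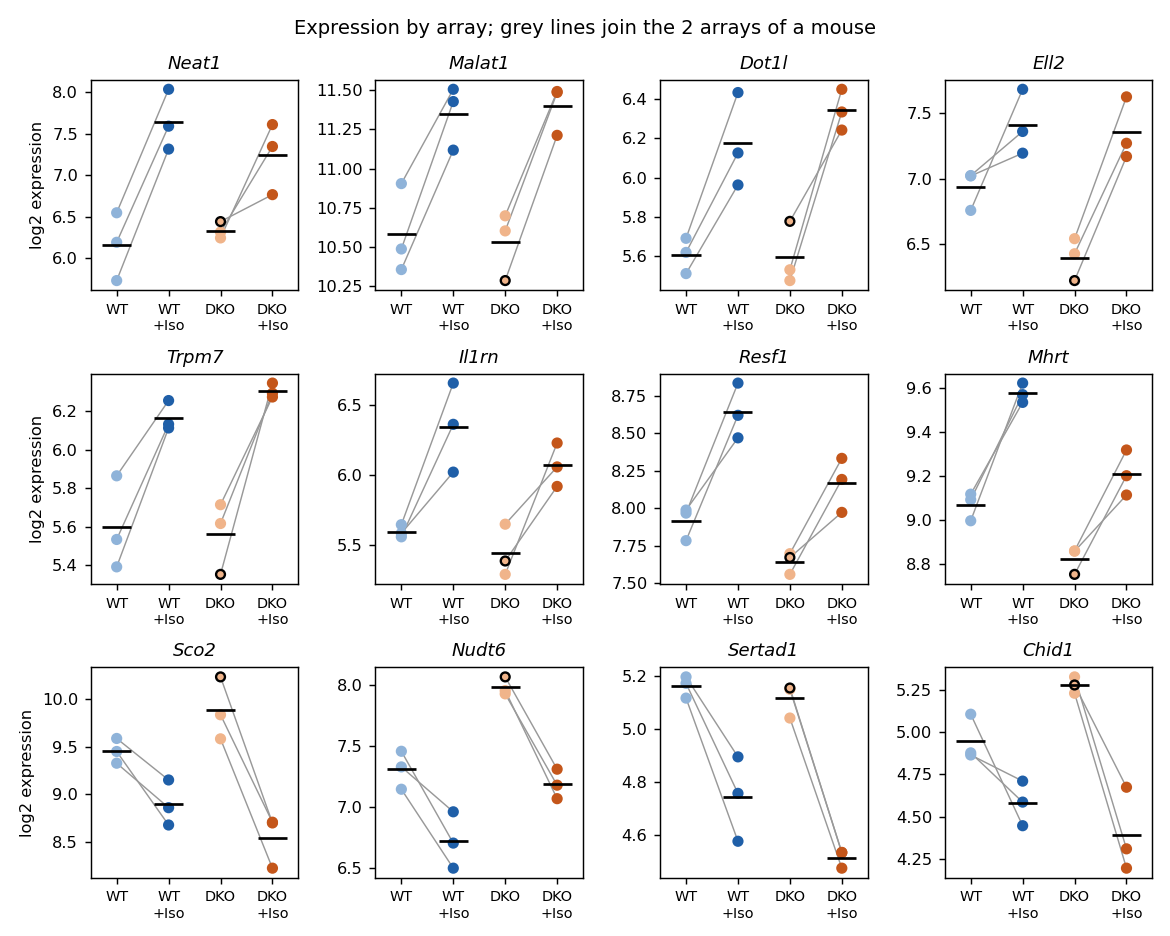
Expression (vertical axes, log2) of 12 genes that passed the mean Iso effect in the 4 groups of 3 arrays; points are arrays, black bars are group means, grey lines join both arrays of a mouse and the black ring marks untreated DKO array 3. In the first 8 panels every mouse is higher with Iso, and in Sco2, Nudt6, Sertad1 and Chid1 every mouse is lower.

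Of the 4 genes that fell, Nudt6 and Sertad1 moved alike. Nudt6 (Entrez gene 229228), a Nudix hydrolase gene that overlaps the growth factor gene Fgf2 on the opposite strand, read 7.45, 7.33 and 7.14 in untreated WT and 6.70, 6.96 and 6.50 in Iso-treated WT. Its DKO values were 7.92, 7.95 and 8.06 untreated against 7.18, 7.07 and 7.31 treated. Within each treatment the DKO arrays lay higher, and treated DKO and untreated WT arrays overlapped. Nudt6 fell by 0.69 (SE 0.10, adjusted p = 0.0306), with -0.59 in WT and -0.80 in DKO and an interval of the difference from -0.64 to 0.22, while Fgf2 differed by -0.02 (adjusted p = 0.963).

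Sertad1 (Entrez gene 55942), a transcriptional cofactor that binds the cyclin-dependent kinase CDK4, read 5.20, 5.12 and 5.17 in untreated WT and 4.90, 4.58 and 4.76 after Iso. In DKO the values were 5.15, 5.04 and 5.16, and 4.54, 4.48 and 4.54 after Iso. No treated array reached the lowest untreated one. Sertad1 fell by 0.51 (SE 0.08, adjusted p = 0.0359), with -0.42 in WT and -0.60 in DKO and an interval of the difference from -0.53 to 0.17.

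Sco2 and Chid1 also fell, with a DKO effect more than the alike rule allows above the WT effect. Sco2 (Entrez gene 100126824), which delivers copper to cytochrome c oxidase, read 9.45, 9.33 and 9.59 in untreated WT, and 8.68, 8.86 and 9.15 after Iso. It read 9.84, 9.58 and 10.23 in untreated DKO, and 8.71, 8.23 and 8.70 after Iso. Sco2 fell by 0.95 (SE 0.14, adjusted p = 0.0306, 1.93-fold lower), with -0.56 in WT and -1.34 in DKO. The interaction, -0.78, had an interval from -1.37 to -0.19 but did not pass across all genes. Chid1 (Entrez gene 68038), which encodes a protein with a chitinase-like domain, fell by 0.63 (SE 0.10, adjusted p = 0.0387), with -0.37 in WT and -0.89 in DKO. Its arrays lay at 4.86 to 5.11 and 4.45 to 4.71 in WT, and at 5.23 to 5.33 and 4.20 to 4.67 in DKO, untreated first, without overlap.

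Among these genes, the mouse as a fixed block ended the calls for Sertad1 and Chid1 (each adjusted p = 0.0928). With the mouse as a random block both were kept (adjusted p = 0.0298 and 0.0336). All 4 calls were kept without untreated DKO array 2 or 3. Sco2, Nudt6 and Chid1 were also kept without Iso-treated DKO array 3, Sco2 and Nudt6 without Iso-treated WT array 3, and Nudt6 without Iso-treated WT array 2; other single arrays left out ended them (highest adjusted p between 0.123 and 0.146).

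Probe sets named for microRNA genes, Mir5112 and Mir1932, passed the mean effect through WT alone. Mir5112 (Entrez gene 100628586) read 5.73, 5.81 and 6.46 in untreated WT and 10.26, 10.08 and 10.56 in Iso-treated WT, whereas DKO gave 7.45, 7.18 and 7.88 untreated and 6.96, 7.39 and 7.50 treated. Its mean effect of 2.04 (SE 0.16, adjusted p = 0.000262) averages 4.30 in WT and -0.22 in DKO, and so is no shared response. Mir1932 (Entrez gene 100316690) had a mean effect of 1.13 (SE 0.16, adjusted p = 0.0306), from 2.55 in WT and -0.28 in DKO. For both the effect differed between genotypes in the interaction test, in which they were the 2 genes that passed of 13737 (0.0146%). Mir5112 passed without each array in turn, whereas Mir1932 was lost without any 1 array other than Iso-treated WT array 1 or 3, Iso-treated DKO array 3 or untreated DKO array 2 or 3 (highest adjusted p = 0.123).

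The class of small non-coding RNA genes, of which 210 were tested, had a median mean effect of 0.09 (0.19 in WT and -0.04 in DKO), against 0.00 over all genes, and 138 of 210 lay above 0. Which transcript such a probe set detects was not determined here. The mature Mir1932 sequence is printed to show what the name refers to, with its seed, bases 2 to 8, in capitals (RefSeq, GRCm38.p6, chr11:119390524-119390545, + strand).
mmu-miR-1932: gUUGCGGAcagcgcuaggucgg

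**Figure D3:**
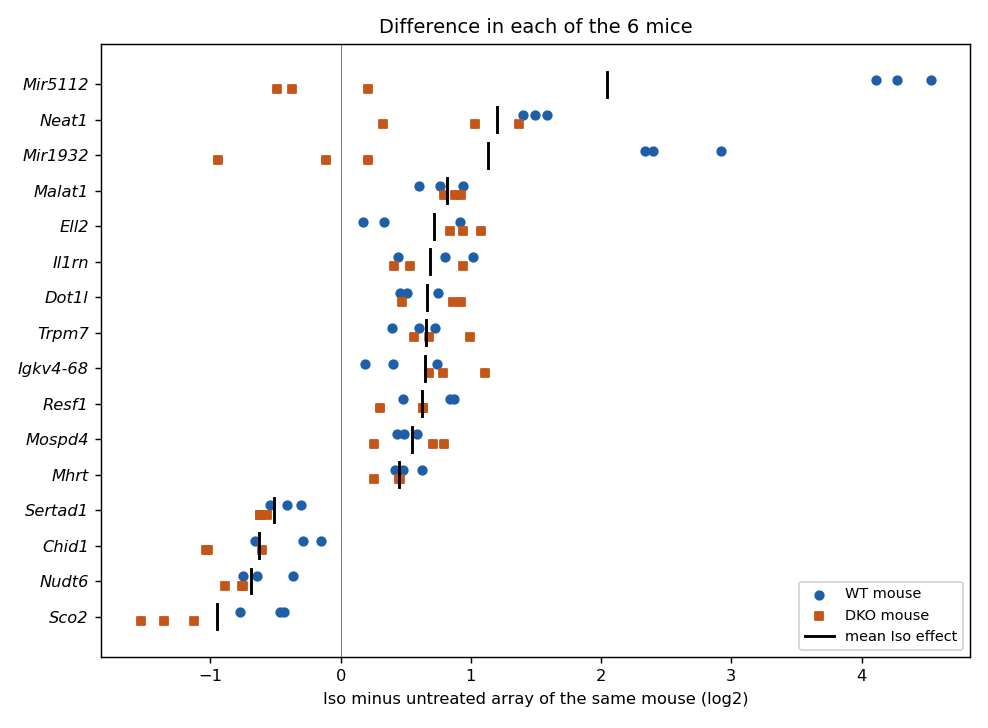
Iso-treated minus untreated array of the same mouse (horizontal axis, log2) for the 16 named genes that passed the mean effect (rows); blue circles are the 3 WT mice, orange squares the 3 DKO mice and black bars the mean effect. For 14 of the 16 genes all 6 mice lie on the same side of 0, and for Mir5112 and Mir1932 the WT mice lie far from the DKO mice.

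Genes of the cyclic AMP response were measured next, and none passed with all 12 arrays. In the list of CREB-responsive genes and cyclic AMP brakes, 20 of 31 lay above 0 (50.3% of all genes did) with a median of 0.08, and 6 had an unadjusted p under 0.05 upward and 0 downward, against 6.72% upward and 7.69% downward over all genes. Nr4a1, an immediate early nuclear receptor, read 7.82, 7.72 and 7.54 in untreated WT and 8.16, 8.63 and 8.40 after Iso, and 7.10, 6.97 and 7.39 in untreated DKO and 7.71, 7.47 and 7.79 after Iso. It was higher with Iso in all 6 mice, without overlap within a genotype. Its mean effect was 0.61 (SE 0.11, adjusted p = 0.0613), with 0.71 in WT and 0.50 in DKO; without untreated DKO array 3 it was 0.66 and passed (adjusted p = 0.0185).

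Sik1, a kinase that restrains CREB coactivators, read 6.17, 6.39 and 6.45 in untreated WT and 6.67, 6.68 and 6.81 after Iso, and 5.63, 5.89 and 6.36 in untreated DKO and 6.55, 6.69 and 6.68 after Iso. All treated arrays lay above all untreated ones, and untreated DKO array 3 was the highest of its group. The mean effect was 0.53 (SE 0.12, adjusted p = 0.0921), with 0.38 in WT and 0.68 in DKO. Without that array it was 0.63 and passed (adjusted p = 0.0132), but the DKO effect of 0.88 lay outside the rule for moving alike. Rgs2, which switches off G protein signalling, differed by 0.50 (adjusted p = 0.104), with 0.80 in WT and 0.20 in DKO. The phosphodiesterases Pde4b and Pde4d, which degrade cyclic AMP, differed by 0.26 and 0.06, the cyclic AMP repressor Crem by -0.04 and the clock gene Per1 by 0.10.

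Of the immediate early factors 18 of 30 lay above 0, with a median of 0.03 (0.08 in WT and -0.07 in DKO). In each direction 4 had an unadjusted p under 0.05, against 6.72% higher and 7.69% lower over all genes. The mean level of the list was 5.24 to 5.32 in untreated and 5.37 to 5.44 in Iso-treated WT, without overlap. In DKO it was 5.18, 5.26 and, on array 3, 5.54 untreated, and 5.24 to 5.29 with Iso, and without that array the median was 0.06. Fos, a subunit of AP-1, differed by 0.29 (adjusted p = 0.278), with 0.56 in WT and 0.02 in DKO. It read 4.94, 4.94 and 5.58 on the untreated DKO arrays and 5.29, 5.10 and 5.11 on the treated ones. Of the untreated arrays, array 3 alone lay above the treated ones. Without untreated DKO array 3 the mean effect was 0.39 (adjusted p = 0.0481). Fos did not move alike there, with 0.56 in WT and 0.23 in DKO. Egr1 read lower with Iso in all 6 mice, 5.62 to 5.64 against 5.14 to 5.45 in WT and 5.52 to 5.84 against 5.21 to 5.33 in DKO, but did not pass (-0.38, adjusted p = 0.0995). Junb differed by 0.08 in WT and -0.68 in DKO, Nr4a3 by -0.03 and 0.78, and the stress factor Atf3 by 0.17 and -0.08. Of 20 genes of the beta-adrenergic pathway itself, 9 lay above 0, and 3 had an unadjusted p under 0.05 in each direction.

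Of the stress pathway lists, 0 members passed limma's test with all 12 arrays, and their counts at an unadjusted p under 0.05 are given list by list. Over all genes 6.72% were higher and 7.69% lower at that threshold, the shares to set beside each list below. For endoplasmic reticulum stress, 14 of 28 genes lay above 0, with 1 higher and 7 lower at an unadjusted p under 0.05. The median of the mean effect was 0.00, beside medians of -0.17 in WT and 0.02 in DKO. Without untreated DKO array 3 it was -0.05. The mean level of the list was 7.33 to 7.39 in untreated and 7.19 to 7.22 in Iso-treated WT, without overlap, and its median over arrays was 7.19 in untreated and 7.17 in Iso-treated DKO, with overlap. The sensor chaperone Hspa5 differed by 0.13 (adjusted p = 0.683) and the stress factor Ddit3 by -0.06. Sdf2l1, a cofactor of that chaperone, read 6.64, 6.25 and 6.72 in untreated WT and 5.55, 5.69 and 5.42 after Iso, and 5.69, 5.35 and 6.36 in untreated DKO and 5.33, 5.08 and 5.33 after Iso. Treated arrays lay below untreated ones within each genotype. Its mean effect was -0.77 (SE 0.16, adjusted p = 0.0665), with -0.98 in WT and -0.55 in DKO. Without untreated DKO array 3 it was -0.63 and passed (adjusted p = 0.0291). The DKO effect was then -0.27, outside the rule for moving alike. The other 6 lower genes were Derl1 (-0.66), Creld2 (-0.35), Derl2 (-0.32), Calr (-0.28), Pdia4 (-0.27) and Manf (-0.26), which act in protein folding or its quality control.

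Targets of ATF4, the factor of the integrated stress response, were below 0 in 23 of 28 cases, with a median of -0.10 and 0 higher and 2 lower at an unadjusted p under 0.05. Trib3, an ATF4 target, differed by -0.18. Heat shock proteins and chaperones had a median of 0.14 (19 of 30 above 0; 4 higher and 1 lower), with -0.01 in WT and 0.28 in DKO; without untreated DKO array 3 the median was 0.07. Hspa1b, an inducible chaperone, read 9.48, 9.35 and 9.32 in untreated WT and 9.94, 9.19 and 9.26 after Iso, and 9.28, 9.34 and 9.38 in untreated DKO and 9.98, 10.12 and 9.85 after Iso. The groups overlapped in WT and not in DKO. Its mean effect was 0.36 (0.08 in WT and 0.65 in DKO, adjusted p = 0.206).

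For oxidative stress, 14 of 31 genes on a list of antioxidant genes and targets of the antioxidant factor NRF2 lay above 0 (median -0.06). At an unadjusted p under 0.05, 1 was higher and 4 lower, against 6.72% and 7.69% of all genes. Hmox1, the heme-degrading enzyme, read 8.70, 8.43 and 8.91 in untreated WT and 9.48, 9.16 and 9.13 after Iso, but 8.71, 8.75 and 9.12 in untreated DKO and 8.41, 8.35 and 8.30 after Iso. It was higher with Iso in each WT mouse and lower in each DKO mouse, and its mean effect was 0.04 (adjusted p = 0.924). Nqo1 differed by 0.19 in WT and -0.33 in DKO. Txnip, an inhibitor of thioredoxin and of glucose uptake, was the 1 higher member of this list. It read 11.74 to 11.79 in untreated and 12.07 to 12.30 in treated WT. The DKO groups had means of 11.72 untreated and 12.12 treated, and all treated arrays lay above all untreated ones. Its mean effect was 0.42 (SE 0.08, adjusted p = 0.0656), with 0.43 in WT and 0.40 in DKO. It passed in 5 of 24 alternative settings, among them without untreated DKO array 3 (adjusted p = 0.0496) and without the filter on dim genes (0.0424). Trended and robust variances (0.0442) and array weights (0.0147) also let it pass. With 1 array left out it passed in 1 of 12 fits (highest adjusted p = 0.230). It did not pass with the mouse as a fixed block (0.120) or as a random block (0.0570).

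Metallothionein and glucocorticoid-responsive genes were above 0 in 11 of 16 cases, with 2 higher and 0 lower at an unadjusted p under 0.05. Their median mean effect was 0.09, beside medians of 0.19 in WT and 0.09 in DKO. Their mean level was 6.76 to 6.80 in untreated and 6.95 to 7.03 in Iso-treated WT, without overlap, and 6.66 to 6.88 and 6.74 to 6.83 in DKO. Without untreated DKO array 3, 13 of 16 lay above 0 with a median of 0.14. At an unadjusted p under 0.05, 6 were then higher and 0 lower, against 1098 and 1151 of all 13737 genes. Single members included Mt1 and Mt2, which bind metal ions, at 0.13 and 0.08. Hypoxia and glycolysis genes had 15 of 30 above 0 (median 0.00). In WT, Vegfa, the endothelial growth factor, read 9.46 to 9.83 untreated and 9.73 to 10.11 after Iso, with overlap. In DKO it read 9.42 to 9.56 and 10.15 to 10.36, without overlap. Its mean effect was 0.50 (adjusted p = 0.0656), and 0.51 without untreated DKO array 3, where it passed (adjusted p = 0.0486). Vegfa did not move alike there, with 0.22 in WT and 0.80 in DKO. Of the p53 and DNA damage genes 13 of 23 lay above 0 (median 0.01), with the cell cycle inhibitor Cdkn1a at -0.03, and of the apoptosis genes 10 of 24 (median -0.06). Over the endoplasmic reticulum, ATF4, heat shock, NRF2, metallothionein, hypoxia, p53 and apoptosis lists, signs were the same in both genotypes for 15 of 28, 19 of 28, 16 of 30, 17 of 31, 8 of 16, 14 of 30, 7 of 23 and 14 of 24 genes, beside 52.2% of all genes.

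Genes of stretch and hypertrophy had a median of -0.01 over 34 genes, and 27 of the 34 had the same sign in both genotypes. Dot1l and Ell2, described above, were its 2 members that passed, and both were put on this list with earlier results of these data known. At an unadjusted p under 0.05, 6 were higher and 5 lower, beside 6.72% and 7.69% of all genes. The atrial natriuretic peptide gene Nppa read 13.02, 12.82 and 12.32 in untreated WT and 12.03, 12.39 and 11.71 after Iso, and 10.84, 11.11 and 11.39 in untreated DKO and 10.92, 10.73 and 10.65 after Iso. Groups overlapped in both genotypes, 5 of 6 mice were lower with Iso, and the mean effect was -0.51 (SE 0.15, adjusted p = 0.158). Skeletal actin Acta1 read lower with Iso in 6 of 6 mice, with -0.34 in WT and -0.32 in DKO (mean effect -0.33, adjusted p = 0.122). Nppb and Ankrd1, both induced by stretch, differed by -0.13 and 0.28.

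For atrophy and autophagy genes the median was 0.03 (18 of 35 above 0), and the muscle ubiquitin ligase Fbxo32 differed by 0.64 in WT and 0.02 in DKO. Inflammatory genes had a median of 0.01, with 19 of 37 above 0 and Il1rn the 1 that passed. At an unadjusted p under 0.05, 6 were higher and 5 lower. Beside these and the lists that follow stand 50.3% of all genes above 0, 6.72% higher and 7.69% lower. The neutrophil-attracting chemokine Cxcl2 differed by 0.68 (1.10 in WT and 0.27 in DKO) and interleukin 1 beta, Il1b, by 0.48 (0.89 and 0.07), while the NF-kB subunits Rela, Relb and Nfkb2 lay at -0.33, -0.31 and -0.34. Interferon-stimulated genes were above 0 in 20 of 28 cases (median 0.06), with 1 at an unadjusted p under 0.05, and circadian clock genes in 10 of 20 (median 0.03), with 4 higher and 0 lower. Among the latter, Nfil3, a repressor in the clock, read 7.18 to 7.27 and 7.40 to 7.62 in WT and 6.87 to 7.39 and 7.63 to 7.85 in DKO. Within each genotype its treated arrays lay above the untreated ones (mean effect 0.41, adjusted p = 0.120).

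Lists of muscle function were set beside the 50.3% of all genes above 0. At an unadjusted p under 0.05, 6.72% of all genes were higher and 7.69% lower. Calcium handling genes had a median of 0.18 (20 of 27 above 0; 9 higher and 1 lower at an unadjusted p under 0.05) and sarcomere genes one of 0.10 (26 of 32; 6 higher and 0 lower). Without untreated DKO array 3 the medians were 0.10 in both lists. Ryr2, the calcium release channel of the sarcoplasmic reticulum, read 9.98, 10.17 and 10.04 in untreated WT and 10.48, 10.62 and 10.27 after Iso, and 10.28, 10.23 and 9.96 in untreated DKO and 10.81, 10.96 and 10.63 after Iso. It was higher with Iso in each mouse (mean effect 0.52, SE 0.10, adjusted p = 0.0649). The giant spring protein titin, Ttn, read 10.58, 10.93 and 10.48, and 11.24, 11.52 and 10.91 after Iso, in WT, and 10.73, 10.78 and 10.30, and 11.50, 11.69 and 11.23 after Iso, in DKO. Its mean effect of 0.72 (SE 0.14) did not pass (adjusted p = 0.0649). It passed with the mouse as a fixed block (adjusted p = 0.0343) but not as a random block (adjusted p = 0.0552). With 1 array left out it passed in 1 of 12 fits (highest adjusted p = 0.221).

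Fatty acid use gave a median of 0.12, and one of 0.07 without untreated DKO array 3. Of its genes 28 of 36 lay above 0, beside 50.3% of all genes. At an unadjusted p under 0.05, 9 were higher and 1 lower, beside 6.72% and 7.69% of all genes. Pdk4, the kinase that turns off glucose oxidation, read 11.20 to 11.38 and 11.61 to 11.75 in WT and 10.89 to 11.08 and 11.30 to 11.54 in DKO, without overlap within a genotype. The effect was 0.40 in WT and 0.44 in DKO (mean effect 0.42, SE 0.08, adjusted p = 0.0649). Ppargc1a, a coactivator of mitochondrial genes, differed by 0.11 and its relative Ppargc1b by 0.63 (adjusted p = 0.0728). Without untreated DKO array 3, Ryr2, Ttn, Pdk4 and Ppargc1b passed (adjusted p = 0.0496, 0.0496, 0.0496 and 0.0287). Ion channels had a median of 0.09 (12 of 21 above 0), oxidative phosphorylation one of -0.01 (21 of 44) and extracellular matrix one of 0.00 (19 of 37).

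**Figure D4:**
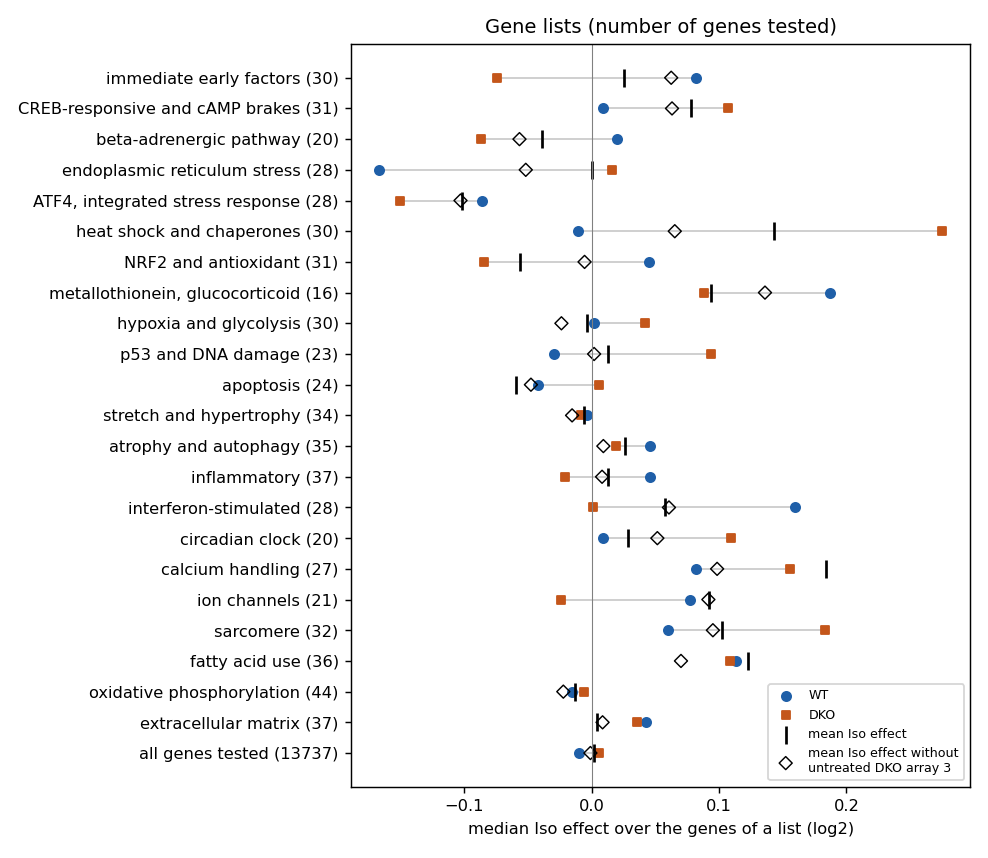
Median Iso effect (horizontal axis, log2) over the tested genes of 22 lists and over all 13737 genes (rows, number of genes tested in brackets); blue circles are WT, orange squares DKO, black bars the mean of both and open diamonds that mean without untreated DKO array 3. Of the black bars, calcium handling, heat shock and fatty acid use lie farthest above 0 and the ATF4 list farthest below 0; of the diamonds, the metallothionein list lies highest, and the WT and DKO medians of the endoplasmic reticulum and heat shock lists lie apart.

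Markers of other cell types were read in the same way. Over all genes 50.3% lay above 0, with 6.72% higher and 7.69% lower at an unadjusted p under 0.05. The 17 macrophage markers tested had a median mean effect of -0.20, with -0.06 in WT and -0.42 in DKO. Of them 3 lay above 0, and 1 was higher and 5 lower at that threshold. The 17 endothelial markers had a median of 0.06, with 0.23 in WT and -0.26 in DKO. Fibroblast (13 genes), mural (12 genes) and ventricular (14 genes) markers had medians of -0.09, -0.07 and 0.09. The mean level of the 7 neural and mesothelial markers was 3.86 to 3.89 in untreated and 4.02 to 4.31 in Iso-treated WT, without overlap, and 3.76 to 4.04 and 3.66 to 3.91 in DKO. The 6 erythroid and platelet markers lay at 5.95 to 6.41 in untreated and 5.63 to 5.92 in Iso-treated DKO, without overlap, and at 6.28 to 6.47 and 6.41 to 6.70 in WT. Atrial markers had a mean level of 6.61 and 6.62 on Iso-treated WT arrays 1 and 2, against 5.45 on array 3 and 5.42 to 6.19 on the other 9 arrays. Leaving out these 2 arrays would leave 1 Iso-treated WT array, too few to read calls of that fit. Untreated DKO array 3 had the highest mean level of endothelial (6.59), macrophage (5.42) and lymphoid (3.82) markers of the 12 arrays. For the other marker lists it lay within the range of the other arrays, and its sarcomere level (10.2) was the lowest. The part of these cell types in the results was not tested.

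Without untreated DKO array 3, many more genes passed. The mean effect then called 102 genes (0.743% of those tested), 72 higher (0.524%) and 30 lower (0.218%), among them all 17 of the 12-array fit. Of the 102, 97 had the same sign in both genotypes, beside 55.2% of all genes in this fit. Of them 60 moved alike, 42 higher and 18 lower, including the 11 described. The 102 were selected by the mean of both effects, which favours equal signs, so these counts describe them and add no evidence. DKO then rests on 2 untreated arrays. Small non-coding RNAs made up 9 of the 102 genes that passed and 210 of the 13737 genes tested. Their class had a median effect of 0.15 in this fit.

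The genes that rose most in that fit were Mir5112 (2.14), Snord17, a small nucleolar RNA (1.25), Mir1932 (1.24), Neat1 (1.23), the estrogen receptor gene Esr1 (1.22), Zfp955b (1.11), Mir210, a microRNA gene of the hypoxia response (0.92), the nuclear export factor Xpo6 (0.92), Defa25 (0.91) and Dusp10, a phosphatase of stress-activated kinases (0.86). They were not all shared: Esr1 differed by 2.72 in WT and -0.28 in DKO, and Snord17 by 2.36 and 0.15. Xpo6 (0.88 in WT and 0.96 in DKO) and Dusp10 (1.03 and 0.69) moved alike. Mir210 read 6.19, 6.01 and 5.82 in untreated WT and 6.73, 6.63 and 6.46 after Iso, and 5.72, 5.98 and 7.06 in untreated DKO and 7.19, 7.39 and 6.71 after Iso. Untreated DKO array 3 stood more than 1 above the other arrays of its group.

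The genes that fell most without that array were Ighv14-1, an immunoglobulin heavy chain segment (-1.02), Nt5m (-0.96) and Polrmt (-0.64), a nucleotidase and the RNA polymerase of mitochondria, Eif1ad (-0.87), the ubiquitin ligase Rnf5 (-0.87), Sco2 (-0.86), Nudt6 (-0.67), the transcriptional repressor Brms1 (-0.66), Sdf2l1 (-0.63) and Ms4a7 (-0.63), a membrane gene of macrophages. Nt5m, Polrmt, Brms1 and Ms4a7 moved alike. Brms1 was below its untreated levels on all 6 treated arrays, at 5.39 to 5.59 and 4.69 to 5.25 in WT and 5.54 to 6.00 and 4.81 to 5.09 in DKO. Ighv14-1 read 6.51 and 6.90 on untreated DKO arrays 1 and 2 but 4.76 on array 3, and with all 12 arrays it did not pass (-0.69, adjusted p = 0.319). Rnf5 read 6.71 and 6.77 on untreated DKO arrays 1 and 2 but 5.45 on array 3.

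The number of calls turned on single arrays throughout. With 1 array left out of the 12, between 2 and 102 genes passed and between 0 and 60 moved alike. The 17 calls became 2 without untreated array 1 of either genotype, untreated WT array 3 or Iso-treated DKO array 1 or 2, and 3 without Iso-treated WT array 2, and 5 without untreated WT array 2 or Iso-treated WT array 1. They became 11 without Iso-treated DKO array 3, 24 without Iso-treated WT array 3 and 39 without untreated DKO array 2. The 102 genes of the 11-array fit ranged from 12 to 256 with 1 more array left out. The 12 came without Iso-treated DKO array 2 or untreated WT array 1, and the 256 without Iso-treated WT array 3. With the mouse as a fixed block the number was 35. With trended and robust variances Dot1l, Trpm7, Chid1, Ell2, Mospd4 and Mhrt had an adjusted p of 0.0530, Il1rn 0.0617, the kappa segment 0.0642 and Sertad1 0.0653. Calls without Iso-treated WT arrays 1 and 2 are not counted, as that group then holds 1 array. The directions of the 16 named genes of the 12-array fit were the same in every setting tried.

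**Figure D5:**
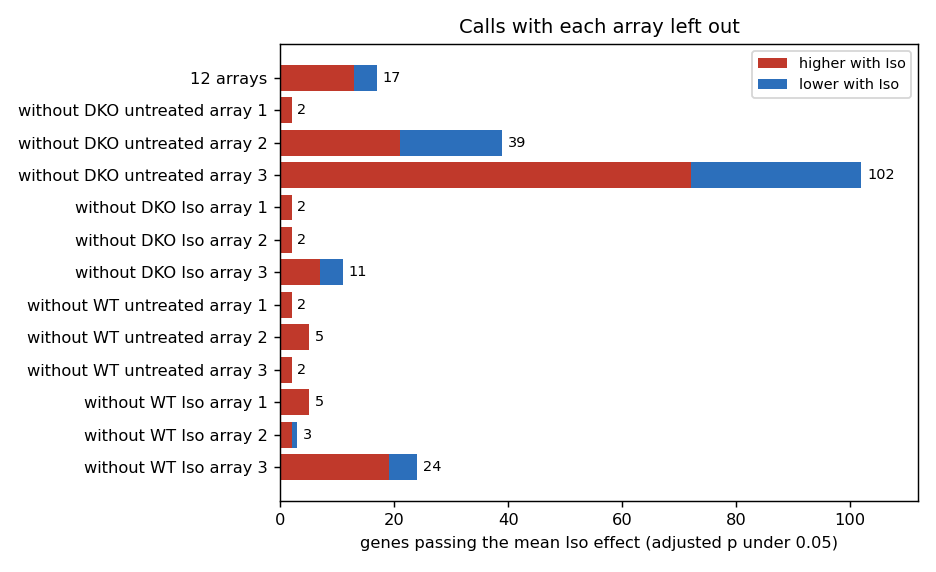
Number of genes that passed the mean Iso effect (horizontal axis) with all 12 arrays and with each array left out (rows); red bars are genes higher and blue bars genes lower with Iso. All 12 arrays gave 17 genes, and the largest number, 102, came without untreated DKO array 3.

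Promoters were searched for the motifs of these pathways on both strands: the cyclic AMP response element TGACGTCA, the AP-1 element TGANTCA and the endoplasmic reticulum stress element, CCAAT followed after 9 bases by CCACG. The first cannot match at the same place as the second. RefSeq promoters were found for 8 of the 13 genes that rose and for the 4 that fell. Of the 10 promoters of genes that rose, 1 held the cyclic AMP element (Ell2), 1 the AP-1 element (Il1rn) and 0 the stress element, and of the 6 promoters of genes that fell, 0 held any of them. Over the 13211 promoters of genes tested the shares were 2.67%, 5.44% and 0.121%, and over all 32851 promoters 1.79%, 7.81% and 0.119%. Among the 62 promoters of genes higher without untreated DKO array 3 the shares were 1.61% for the cyclic AMP element and 4.84% for AP-1. A match is a description of letters and not a measured binding site.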

How the data were processed

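Per the labels, RNA from myocytes of 6 mice was hybridised to 12 Affymetrix arrays. The submitters' processing notes name RMA; the sources used here give neither its version nor the array type or annotation build. Values as deposited are log2 (2.25 to 13.8, array medians near 3.32) and were used unchanged. Of 25428 probe sets, 24705 had 1 gene symbol and 723 none and were left out; for 1 symbol with a pair of probe sets the brighter one was taken.

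Group means of the 4 groups were fitted with lmFit and eBayes of limma 3.58.1 (R 4.3.3). The mean Iso effect, the effect in each genotype and their difference were tested over 13737 genes, with Benjamini-Hochberg adjustment and a threshold of 0.05. The other 10967 genes were dim. Standard errors and intervals are limma's. Alternatives changed the filter, scaling, variance model, array weights, mouse block and arrays; those without 2 named arrays were added after seeing the data.

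The arrays of a mouse carry the same mouse number in the labels, so they pair as the same animal. The residuals of paired arrays correlated at 0.0073, 0.086 and 0.13 in DKO and at -0.062, 0.057 and 0.011 in WT.

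The members, the 32 gene lists (791 genes, of which 741 matched and 682 were tested) and the alternatives were chosen with earlier results of these data known. Named were the 10 largest rises and falls that passed, up to 4 passing genes per list (or the 1 with the smallest p), the 10 genes moving alike with the smallest p, and a fixed set, of which 29 genes were tested; predicted genes were counted only. Other list members, and overlapping genes such as Myh7 and Fgf2, were picked after their values were seen. This rule was also applied to the fit without untreated DKO array 3. In simulated data 200 of 13737 genes were changed by the same amount in both genotypes. The test of the mean effect recovered 94% at a log2 change of 1 and 48% at 0.5, with 10 false calls. Noise was drawn independently for each gene and array, without errors shared by the genes of an array. These shares therefore need not hold for the data.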

Additional observations from a re-analysis of the deposited data

Results flagged for a closer look

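The Iso effect differed between the genotypes for Mir5112 by -4.52 (DKO minus WT; limma interaction test, adjusted p = 7.9e-05), and for Mir1932 by -2.83 (adjusted p = 0.00642). Both were higher with Iso in 3 of 3 WT mice and in 1 of 3 DKO mice, and both passed the mean effect of both genotypes although the effect is in WT. No rule was applied here to flag single deviating values within groups of 3 arrays. Untreated DKO array 3 and fits with 1 array left out are described above.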

How the results depend on the processing

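The number of genes passing the mean Iso effect was 17, and with 1 array left out it ranged from 2 to 102; genes moving alike (11) ranged from 0 to 60, the WT effect (3 genes) from 2 to 8, the DKO effect (7) from 0 to 605, the interaction (2) from 2 to 16, and the mean effect without untreated DKO array 3 (102) from 12 to 256. The counts of 0 in DKO by limma, without Iso-treated DKO array 1 or 2, stood beside 1815 and 1604 genes at an unadjusted p under 0.05. Trended and robust variances gave 10 genes for the mean effect, 6 moving alike and 5 in WT. Array weights gave 581, 303 and 6, with 1109 in DKO and 51 for the interaction. Without Iso-treated WT arrays 1 and 2 the numbers were 1 for the mean effect, 0 moving alike, 2 in DKO and 4 for the interaction, and without Iso-treated WT array 3 and untreated DKO array 3 they were 256, 166, 48 and 7, with 12 in WT. Without the filter on dim genes 17 genes passed in DKO. The cause of these differences was not tested.

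With the mouse as a fixed block, which uses the pairing of arrays by animal, 13 genes passed the mean effect and 5 the interaction. Of the 17 genes that passed without a block, 7 were among these 13. Of the 11 that moved alike without a block, 3 were among the 8 moving alike with it. The fixed block gave 35 genes for the mean effect without untreated DKO array 3, and likewise 35 with both arrays of DKO mouse 3 left out. With the mouse as a random block 19 genes passed the mean effect, among them all 17 of the fit without a block. The same 11 genes moved alike, and 5 genes passed in WT. Among named genes that passed without a block, Mir5112, Mir1932, Sco2, Nudt6, Neat1 and Malat1 kept their calls with the fixed block. The others lost theirs. The fixed block let Ttn and Zfp955b (adjusted p = 0.0464) pass, and changed no other call among named genes.

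Signs turned only for genes that did not pass. Without Iso-treated WT arrays 1 and 2 the effect was -0.23 for Myl7, -1.23 for Sln, -0.026 for Hmox1 and -0.11 for Atf3. With array weights it was 0.0041 for Nqo1, 0.0028 for Crem, 0.061 for Cdkn1a and 0.10 for Camk2a. With the mouse block and without DKO mouse 3 it was 0.011 for Ucp1, 0.0069 for Cdkn1a and 0.11 for Camk2a, and without Iso-treated WT array 3 and untreated DKO array 3 it was 0.0039 for Cdkn1a and 0.076 for Camk2a. With 1 array left out the effects ranged from -0.15 to 0.015 for Ddit3, -0.013 to 0.26 for Per1, -0.024 to 1.24 for Sln, -0.079 to 0.029 for Crem, -0.091 to 0.0042 for Cdkn1a, -0.026 to 0.10 for Hmox1, -0.024 to 0.17 for Atf3 and -0.12 to 0.087 for Camk2a.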
